A study of Mus musculus with 5 samples.

Results

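Neuro2A is a mouse neuroblastoma line, grown from a spontaneous tumour of the peripheral nervous system and widely used as a model of immature neurons. The cells described here are the wells of the single Neuro2A plate that held at least 1000 reads on gene rows, not counting rows of repeats and of the mitochondrial genome. This left 86 of the plate's 96 wells, out of 431 wells kept on all 5 plates. The study captured single mouse cells by fluorescence-activated sorting, 1 to each well of a 96-well plate, tagged the cDNA of each well with its own 5-base barcode, and sequenced every plate as a single library. The other plates held embryonic stem cells of the line ES R1, labelled as stem cell-derived spheres (3 plates, with 93, 66 and 94 wells kept), and mouse embryonic fibroblasts (MEF, 1 plate, 92 wells kept). Neuro2A cells and MEFs shared the same culture medium, and no group carried a drug treatment or a genetic change named in the labels. The study's design text counts 436 single cells. The files hold 480 wells.

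Neuroblasts of the sympathetic lineage arise from the neural crest under a set of lineage transcription factors. They package granins and peptides in dense-core vesicles and release them through the SNARE proteins of the synapse. Neuroblastomas keep parts of this program while they go on dividing.

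The kept Neuro2A wells held 3155092 gene reads in total. A single well had between 1042 and 203348 gene reads, with a median of 26278, and the 5 deepest wells held 21.5% of the reads. Between 190 and 5519 genes were read in a well (median 1424.5), and 9722 genes were read at least once on the plate. The number of genes also went with the barcode. At 1000 reads a well, the 24 wells whose barcode ends in G had a median of 632.5 genes, against 400.25 in the others. Wells with such barcodes had the higher median on every other plate too. Differences between wells therefore hold a part that goes with the barcode, and its cause was not tested. Repeats took 24.5% of all reads and mitochondrial rows 12.9%. The ES plates ranged from 262517 to 11432543 gene reads, and ES replicate 2 had 82.8% of its reads on repeats. All 96 barcodes were used on all 5 plates. Genes typical of Neuro2A (152 genes at 100 CPM or more and at least 10 times their level on every ES plate) had a median of 9.90% of their Neuro2A reads on the MEF plate. Their summed reads per barcode were correlated between the 2 plates (Pearson's r = 0.609 on log2(reads + 1) over 96 barcodes, a description without a test). On ES replicate 3 the like share was 1.73% (47 genes). In the other direction, MEF genes chosen in the same way (236 genes) had a median of 0.366% of their MEF reads on the Neuro2A plate. MEF genes had 11.4% of their MEF reads on ES replicate 3 (374 genes, r = 0.890 on the same scale). Reads were not divided by the depth of the wells for r, so barcodes that are deep on both plates also raise it. Low levels of Neuro2A genes on the MEF plate and on ES replicate 3 are therefore given beside this share, and its part in them was not tested.

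Levels are in CPM (counts scaled to the plate's total of gene reads) for the plate's summed wells, adjusted by the trimmed mean of M values (TMM). Reads mark the 5′ end of the cDNA, so they were not divided by gene length. Folds compare the Neuro2A level with the mean of the 3 ES plates. Since Neuro2A filled 1 plate, an effect of the line and an effect of its plate cannot be told apart. At 12271 genes tested, edgeR's quasi-likelihood test called 0 genes higher and 0 lower than ES at an adjusted p of 0.05. At an unadjusted p under 0.05 it had 497 higher and 1028 lower. The lone Neuro2A plate was assumed to vary like the ES plates, which alone gave the spread (biological coefficient of variation 122%, 2 residual degrees of freedom). Nothing in the labels says whether these were separate cultures, so the spread may be technical. DESeq2 called 80 genes higher and 931 lower, and edgeR without ES replicate 1 called 422 and 1016. Genes are therefore described by their values and by whether Neuro2A lay above or below every ES plate. Over all genes tested this held for 28.3% (above) and 28.6% (below).

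The labelled identity was looked at first. The 5 markers used were chosen with earlier results of these data known, so their high levels are no independent check. Chgb (chromogranin B, a core protein of dense-core granules) stood at 232 CPM in Neuro2A, at 0, 0 and 2.74 in the ES plates and at 30.8 in MEF. Insm1, a zinc finger factor of neuroendocrine cells, stood at 164 CPM, had no read in any ES plate, and stood at 14.1 CPM in MEF. Snap25, the SNARE protein of synaptic vesicle fusion, stood at 122 CPM against 0, 0 and 1.37 in ES and 8.58 in MEF. These genes and the RNA-binding protein Elavl2 were highest on the Neuro2A plate, as was the cyclin Ccne2. A read of at least 1 of these 5 markers was found in 61 of 86 wells. The same held for 15 of 93, 4 of 66 and 20 of 94 ES wells and for 34 of 92 MEF wells. The 25 Neuro2A wells without one had a median of 11918 gene reads and at most 62130.

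Most markers of other cells were at or near 0 on the plate. Of 8 ES markers, 7 were at 0 reads (Pou5f1, Sox2, Nanog, Zfp42, Sall4, Dnmt3l and Tdgf1), and Dppa5 had 1 read in 1 well. Of 8 fibroblast markers with a read in Neuro2A out of 12, Fn1 stood at 459 CPM against 5943 in MEF and Sparc at 116 against 9725. Their ES levels were 673 to 914 and 81.0 to 1225 CPM. The collagens Col1a1, Col1a2 and Col3a1 stood between 2.90 and 8.69 CPM. Pdgfra stood at 96.8 CPM, but 97.0% of its reads came from 1 well. Postn, Lum, Thy1 and Pdgfrb had 0 reads. The summed level of the fibroblast list came to 694 CPM in Neuro2A, 754 to 4540 in ES and 43781 in MEF. None of the 2 macrophage and 4 endothelial markers in the files had a Neuro2A read. Glial, epithelial and erythroid markers summed to between 0.643 and 4.50 CPM.

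The promoters of 3 granin genes are shown, that of Chgb as the most abundant granin on the plate and those of Scg2 and Chga as examples. Scg5 and Scg3, which were more abundant than Scg2 and Chga, are not shown. The promoters of Chgb and Scg2 each hold the palindromic cyclic AMP response element TGACGTCA, printed in capitals. That of Chga holds no exact match (windows of 250 bases before to 50 after the start site, from RefSeq, GRCm38.p6). The Chga window holds tgacgtaa, which differs from the element in 1 letter, and such variants were not searched for.
Chgb (chr2:132781392-132781691, plus strand): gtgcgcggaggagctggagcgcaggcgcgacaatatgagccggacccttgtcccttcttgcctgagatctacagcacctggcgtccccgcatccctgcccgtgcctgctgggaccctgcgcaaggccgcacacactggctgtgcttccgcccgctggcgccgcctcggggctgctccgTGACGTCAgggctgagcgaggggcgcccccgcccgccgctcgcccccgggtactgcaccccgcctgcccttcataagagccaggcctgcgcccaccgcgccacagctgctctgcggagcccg
Scg2 (chr1:79439977-79440276, minus strand): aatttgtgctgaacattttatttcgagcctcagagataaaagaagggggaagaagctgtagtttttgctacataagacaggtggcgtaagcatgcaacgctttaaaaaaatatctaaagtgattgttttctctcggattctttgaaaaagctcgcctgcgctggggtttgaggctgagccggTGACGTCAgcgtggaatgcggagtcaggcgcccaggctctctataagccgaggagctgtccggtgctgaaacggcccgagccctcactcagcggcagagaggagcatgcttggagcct
Chga (chr12:102554691-102554990, plus strand): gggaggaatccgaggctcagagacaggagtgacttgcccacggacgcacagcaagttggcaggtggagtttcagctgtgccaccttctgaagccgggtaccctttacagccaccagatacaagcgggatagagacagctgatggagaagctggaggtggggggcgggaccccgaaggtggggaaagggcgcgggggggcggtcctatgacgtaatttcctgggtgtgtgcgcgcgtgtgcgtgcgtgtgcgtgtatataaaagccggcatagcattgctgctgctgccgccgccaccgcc
The element begins 72 bases before the start site in Chgb and 68 bases before it in Scg2. It occurs in 1.79% of the 32851 promoter windows in the table, and in 4 of the 17 windows found for the 22 genes of the secretory list (Chgb, Scg2, Pcsk1 and Syn1). Of these 4 genes, Pcsk1 had no Neuro2A read and Syn1 had 1. For the 20 genes highest over ES, 7 windows were found, and Chgb's was the only one of these with the element. A match is a description of the letters, not evidence of binding.

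The metallothioneins Mt1 and Mt2 bind zinc and copper and lie next to each other on chromosome 8, in the same orientation. They were near 0 in Neuro2A. Capitals mark the core of the metal response element, TGCGCNC or TGCACNC, on either strand.
Mt1 (chr8:94178839-94179138, plus strand): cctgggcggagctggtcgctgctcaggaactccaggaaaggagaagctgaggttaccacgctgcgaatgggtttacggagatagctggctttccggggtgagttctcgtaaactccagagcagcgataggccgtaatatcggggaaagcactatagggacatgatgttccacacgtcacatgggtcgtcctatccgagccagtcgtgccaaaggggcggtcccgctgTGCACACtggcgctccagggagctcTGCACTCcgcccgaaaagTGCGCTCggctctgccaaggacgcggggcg
Mt2 (chr8:94172368-94172667, plus strand): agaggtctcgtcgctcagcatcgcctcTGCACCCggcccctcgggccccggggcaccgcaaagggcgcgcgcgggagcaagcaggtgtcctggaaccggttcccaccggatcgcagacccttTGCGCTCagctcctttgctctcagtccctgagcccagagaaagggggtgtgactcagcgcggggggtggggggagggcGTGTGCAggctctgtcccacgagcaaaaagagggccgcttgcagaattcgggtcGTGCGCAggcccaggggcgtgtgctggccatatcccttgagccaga
The Mt1 window holds 3 cores and the Mt2 window 4. At least 1 core occurs in 25.7% of all windows, at least 3 in 1.97% and at least 4 in 0.517%.

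Transcription factors of the sympathoadrenal and neuroendocrine lineage were among the genes that set Neuro2A apart from ES. Of 15 with a read in the files, 11 lay above every ES plate and 1 below. Their median difference from ES was 3.98 on the log2(CPM + 1) scale, against -0.44 for all genes tested. Against MEF the median was 0.83, beside -0.03 for all genes tested. Their summed level was 1551 CPM in Neuro2A and 799 in MEF. Phox2a, a homeodomain factor of noradrenergic neurons, stood at 274 CPM in 42 wells, against 0, 2.82 and 23.3 in the ES plates and 42.9 in MEF. Gata2, a zinc finger factor that also acts in sympathetic neurons, stood at 179 CPM in 40 wells, against 0, 8.46 and 4.57 in ES and 41.9 in MEF. No single well held more than 15.5% of the reads of Phox2a or Gata2. St18, a zinc finger factor related to Myt1, stood at 72.7 CPM with no ES read, which is at least 21.7-fold higher at a floor of 3 reads per plate. Hand2 stood at 23.5 CPM in 12 wells, with 67.1% of its reads in 1 of them. Gata3 stood at 14.8 CPM, below its MEF level of 62.6.

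The member of the list below every ES plate was Rest, the repressor that silences neuronal genes outside the nervous system. It stood at 4.18 CPM in Neuro2A, from 13 reads in 7 wells, against 62.8, 33.8 and 86.8 CPM in the ES plates and 23.2 in MEF. The list members Isl1, Neurod1 and Tcfap2b had 0 reads in Neuro2A. The few reads of these genes in the other plates were mostly on ES replicate 2, where Tcfap2b stood at 155 CPM. Sox4 and Sox11, factors of immature neurons and many progenitors, stood at 166 and 197 CPM, above every ES plate but below MEF (343 and 218). Hand1 was not analysed here.

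**Figure D1:**
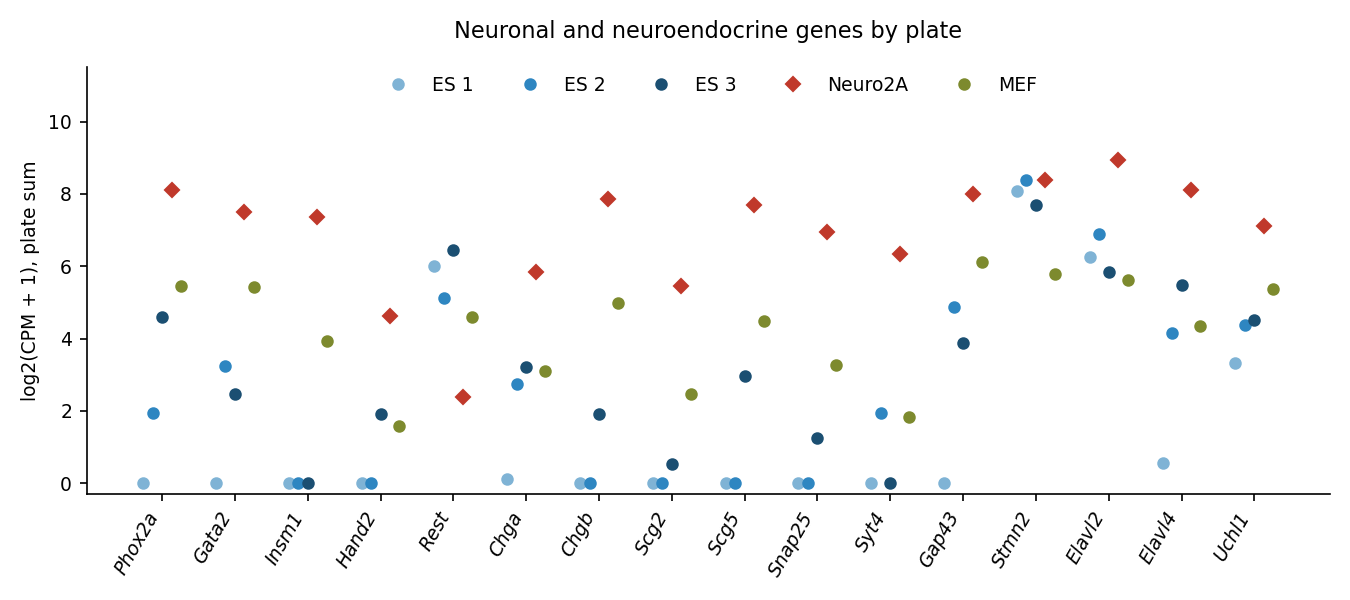
Level of 16 neuronal and neuroendocrine genes on each plate, as log2(CPM + 1) of the summed wells (circles for the 3 ES plates and MEF, red diamonds for Neuro2A). Insm1 has no read on any ES plate, and Rest is the gene for which the Neuro2A diamond lies below every other plate.

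Genes of the secretory granule and synaptic vesicle showed a similar difference from ES, with a median of 3.70 on the log2 scale. Of 22, 14 lay above every ES plate and 1 below. Against MEF the list's median was 1.83, beside -0.03 for all genes tested. Its summed level was 1467 CPM in Neuro2A and 1558 in MEF, or 1428 with the Neuro2A share subtracted from MEF. The granin family had members at varied levels. Beside Chgb, Scg5, which guards the prohormone convertase, stood at 205 CPM against 0, 0 and 6.85 in ES and 21.2 in MEF. Scg3 stood at 58.5 CPM in 31 wells, with ES values of 0, 0 and 3.20. Chga stood at 56.3 CPM, against 0.0808, 5.64 and 8.22. Scg2 stood at 43.1 CPM, but 88.8% of its reads came from 1 well, and without that well it stood at 4.86. Chgb did not rest on 1 well, since its top well held 11.9% of its reads.

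Of the release machinery, Snap25 was joined by Syt11 (232 CPM, against 3.47, 62.0 and 9.13 in ES) and Syt4 (80.4 CPM, against 0, 2.82 and 0), both of the synaptotagmin family. Complexin 1, which clamps the SNARE complex, stood at 69.5 CPM (Cplx1), and the vesicle SNARE Vamp2 at 49.2 against at most 9.13 in ES. Several defining synaptic genes had no read: Syt1, the main calcium sensor, Syp (synaptophysin), Sv2a, Cplx2 and the convertase Pcsk1. A count of 0 in the 86 wells allows a share of wells with a read of up to 3.49%. Nsf, the ATPase that takes SNARE complexes apart in all cells, lay below every ES plate, at 5.15 CPM against 50.5, 50.8 and 63.5. Cpe, a carboxypeptidase of peptide processing, stood at 258 CPM, above ES but below the 1362 CPM of MEF.

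Transmitter synthesis was poorly represented. Of 8 genes with a read in the files, 3 lay above every ES plate. They included Gch1, which makes the cofactor of tyrosine hydroxylase, at 45.7 CPM and the vesicular monoamine transporter Slc18a2 at 3.22, from 10 reads. Maoa, which breaks monoamines down, had 0 reads in Neuro2A, against 16.5, 31.0 and 32.0 CPM in ES and 152 in MEF. The list's median was -0.52, close to that of all genes. Th and Dbh were not analysed here.

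Neuronal cytoskeleton and growth cone genes were higher than ES in 12 of 18 cases, with a median of 2.11, and 1 lay below every ES plate. Against MEF their median was 0.50. Their summed level was 2005 CPM in Neuro2A and 2066 in MEF, or 1853 with the Neuro2A share subtracted from MEF. Tubb3, the neuronal beta tubulin, stood at 142 CPM against 27.9, 31.0 and 33.8. Uchl1, the abundant neuronal ubiquitin hydrolase, stood at 137 CPM against 9.04, 19.7 and 21.9. Crmp1 stood at 99.1 CPM and Stmn3 at 93.6, against no more than 19.1 and 14.9 in ES. Gap43, a growth cone protein, stood at 255 CPM, of which 59.6% came from 1 well. Stmn2, often used as a neuronal marker, did not set the line apart, at 336 CPM against 269, 333 and 207 in ES. The neurofilament genes Nefl and Nefm had 0 reads. Tubb2b, another tubulin of developing neurons, lay below every ES plate at 11.6 CPM against 64.9 to 147. Without the top well of each gene, an alternative chosen after seeing the data, 7 of the 18 lay above every ES plate. The same alternative left 10 of 15 for the transcription factors and 13 of 22 for the secretory genes, against 17.2% of all genes.

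Neuronal RNA-binding proteins were above every ES plate in 5 of 7 cases (median 1.89). Against MEF their median was 1.84, and their summed level was 1502 CPM in Neuro2A and 429 in MEF. Elavl2 stood at 489 CPM against 75.6, 118 and 56.2 in ES and 48.5 in MEF. Elavl4 stood at 275 CPM against 0.485, 16.9 and 43.8, with 66.7% of its reads in 1 well, and the splicing factor Nova1 at 88.1 CPM in 10 wells. The ubiquitous family member Elavl1 was itself highest in Neuro2A, at 611 CPM against 133 to 231 in ES. Elavl3 was above ES with only 8 reads.

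**Figure D2:**
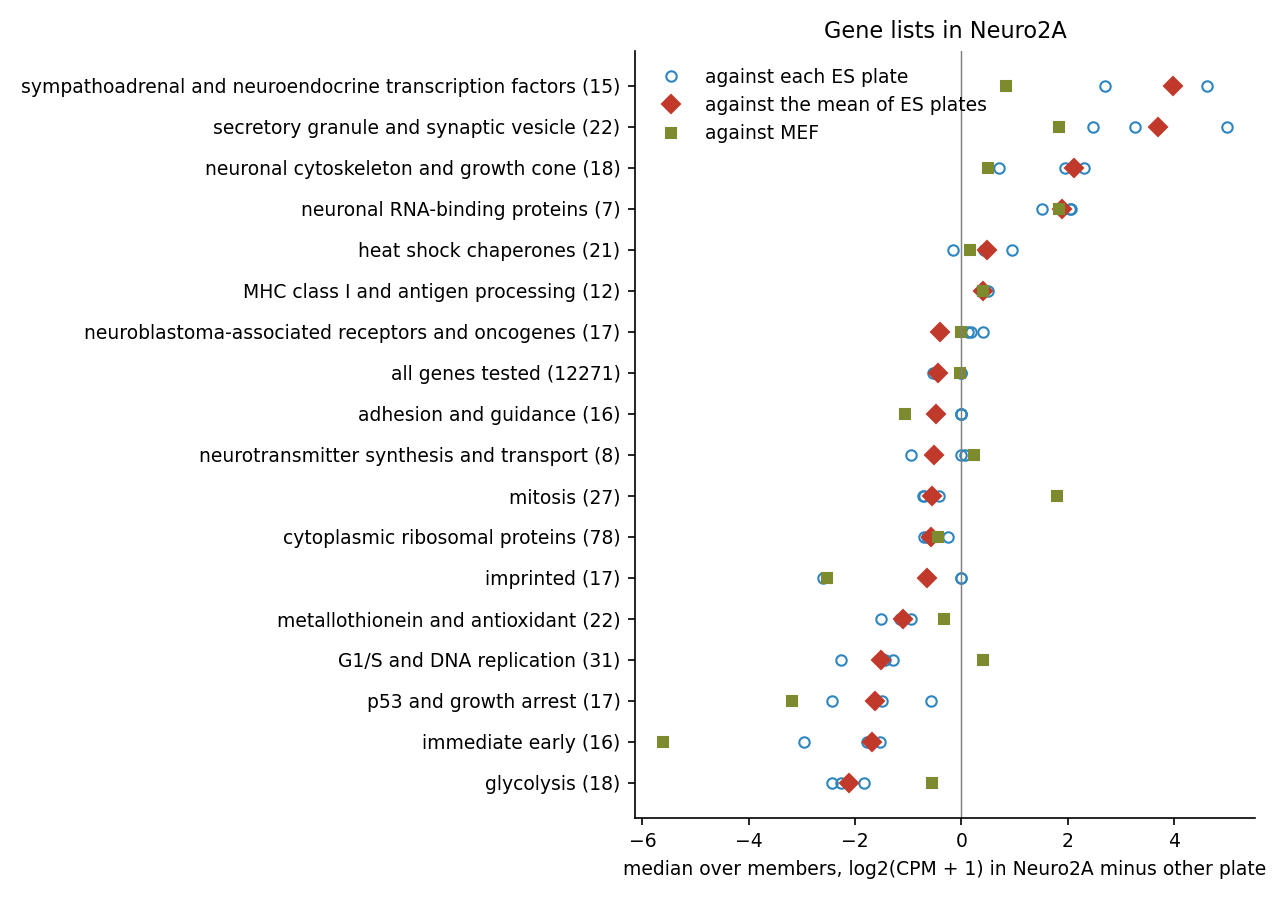
Median over the members of each list of the difference in log2(CPM + 1) between Neuro2A and each ES plate (open circles), the mean of the ES plates (red diamonds) and MEF (green squares), with the number of members in brackets. The 4 neuronal and neuroendocrine lists at the top have medians from 1.89 to 3.98 against ES, and glycolysis, at the bottom, has -2.11.

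At the level of single wells each of the 5 markers was read in only part of the wells. Chgb was read in 48 of 86 wells (55.8%, exact 95% interval 44.7 to 66.5%), Elavl2 in 34.9%, Snap25 in 31.4%, Insm1 in 27.9% and Ccne2 in 24.4%. These shares depend on depth. With every well thinned to 1000 gene reads, which left out no kept well, they were 17.0% for Chgb, 14.5% for Elavl2, 7.79% for Snap25, 5.29% for Insm1 and 8.08% for Ccne2. Thinned shares in the ES plates were 0, 0 and 0.16% for Chgb, and between 2.53% and 4.32% for Elavl2. On the MEF plate, whose wells have a median of 12749 gene reads, the thinned shares were 3.42% for Chgb, 4.02% for Elavl2 and 0.924% for Insm1. All 5 shares were higher in Neuro2A than on any other plate, which the choice of these markers favoured. At 1000 reads a gene at the level of Insm1 is missed in most wells, so a well without a read does not show a cell without the transcript. Intervals cover counting error only, since reads carry no molecular identifiers.

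Among genes that no list named, those with the largest ratios over the highest ES plate included Xlr3b, a gene of the X-linked lymphocyte-regulated family. Xlr3b stood at 252 CPM in 34 wells with 0 reads in all ES plates, at least 75.1-fold higher, and at 18.2 CPM in MEF. Bace2, an aspartic protease related to beta secretase, stood at 296 CPM against 0, 0 and 1.37 in ES (3 reads) and 52.5 in MEF. The chemokine gene Cxcl1 stood at 143 CPM in 37 wells, and the testis-expressed gene Asz1 at 379 CPM in 31. Lrrn3, a leucine-rich repeat protein of neurons, reached 1349 CPM, of which 62.4% came from 1 well. The histone gene Hist1h1a (473 CPM) had 76.1% in 1 well and Disp2 (109 CPM) 64.7%. In all, 346 genes met the criteria for this group (at least 100 CPM, 5 times MEF and a read in 20% of wells), and the 20 with the largest ratios were taken.

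The protocadherin clusters gave a sharp contrast. Clustered protocadherins are cell-surface proteins of neurons, encoded in neighbouring alpha, beta and gamma clusters, each with its own set of first exons. The row of the alpha cluster, Pcdha@, was the fourth highest of all genes in Neuro2A, at 4672 CPM in 44 wells, against 0, 16.9 and 134 in the ES plates and 570 in MEF. The row of the gamma cluster, Pcdhg@, had 0 reads in Neuro2A, against 489, 217 and 790 CPM in ES and 2832 in MEF. It was at least 517-fold lower than the ES mean. Of the beta cluster, Pcdhb22 stood at 220 CPM, with 68.1% of its reads in 1 well, and Pcdhb12 at 50.8. Among the non-clustered protocadherins, Pcdh7, Pcdh17, Pcdh18 and Pcdh19 had 0 reads, and stood at 92.4 to 599 CPM in MEF. The top well held 33.1% of the Pcdha@ reads, and the level without it was 3206 CPM.

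The most abundant transcripts of Neuro2A came from genes of varied function. The top 20 genes held 7.03% of gene reads, and 692 genes held 50% of them. Gnas, an imprinted locus that encodes the stimulatory G protein alpha subunit, ranked first at 6618 CPM, against 1292, 948 and 2722 in ES and 16728 in MEF. Rtn4 (Nogo, of the endoplasmic reticulum) followed at 4968 CPM, and the translation factor Eif4g2 at 4769. Rpl35, Rpl32, Eef1a1, Npm1 and Ptma were in the top 20 as well. Of these, Rpl32 (4210 CPM against 2434 to 2528) lay above every ES plate, and the other genes lay within the ES range. Of these 20 genes, 14 lay above every ES plate, and a high level in Neuro2A was what put them on the list. Slc25a4, the mitochondrial ADP/ATP carrier of heart, muscle and nerve, stood at 2567 CPM in 75 wells, against 143, 161 and 156 in ES and 1020 in MEF. Acsl4, which activates arachidonic acid, stood at 2677 CPM in 52 wells, against 102, 25.4 and 192 in ES. The RNA-binding proteins Tardbp and Hnrpa2b1 and the ferritin chain Fth1 were in this group too. Lars2, at 2860 CPM, drew 48.3% of its reads from 1 well. The rows LOC100043000 and EG668829 are predicted models that may share reads with other genes.

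The cell cycle machinery was uneven. Of 31 genes of G1/S and DNA replication, 20 lay below every ES plate and 4 above, with a median of -1.52. Cyclin E, which starts S phase with its kinase, was present as Ccne2, at 427 CPM in 21 wells against 0, 0 and 24.7 in ES. Ccne1 had 1 read in Neuro2A, against 127, 76.1 and 105 CPM in ES. Ccnd1 stood at 151 CPM, above ES (5.49, 70.5 and 30.1) and close to the 152 of MEF. Ccnd3 had 0 reads, against 269, 84.6 and 626 CPM, at least 338-fold lower, and Ccnd2 had 2.

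The replication genes given here lay below every ES plate, except Pcna. Cdc6, the loader of the replicative helicase, the helicase subunit Mcm5 and the polymerase subunit Pola1 each had 0 reads. They stood at 71.2 to 86.9 CPM, 53.1 to 161 and 94.5 to 202 in the ES plates. Other helicase subunits were read at 35.4 CPM (Mcm3) to 170 CPM (Mcm2), all below every ES plate. Cdk2 stood at 8.36 CPM against 125 to 298. Pcna was within the ES range, at 108 CPM. Uhrf1, at 30.2 CPM, was lower than in every ES plate, and 85.1% of its reads came from 1 well. For MEF the list's median was 0.40 in favour of Neuro2A, beside -0.03 for all genes. The 0.40 is the value of a gene with 1 Neuro2A read and no MEF read. The summed level went the other way, at 1870 CPM in Neuro2A and 4319 in MEF, or 4185 with the Neuro2A share subtracted from MEF.

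Genes of mitosis were closer to ES, with a median of -0.56, 15 of 27 below every ES plate and 5 above. All 27 had a read. Against MEF they were higher, with a median of 1.79 and 11 of 27 past 4-fold (12.8% of all genes were past 4-fold above MEF, with at least 10 CPM in the higher plate). Mki67 stood at 206 CPM against 84.6 to 135 in ES, and Birc5 at 335 against 237 to 473. Nusap1, a spindle protein, stood at 23.2 CPM against 180 to 419. Tacc3, another spindle protein, had 1 read, against 87.4 to 151 CPM in ES.

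Of the genes linked to neuroblastoma, Myc was the abundant family member. It stood at 803 CPM in 60 wells, against 44.3, 64.9 and 135 in ES and 601 in MEF. Mycn, the oncogene amplified in many human neuroblastomas, stood at 45.0 CPM in 16 wells, against 76.7, 175 and 41.5, and 67.1% of its reads came from 1 well. Lmo1 stood at 40.9 CPM with no ES read. Ret stood at 21.2 CPM and Ngfr at 18.3, while Alk, Ntrk2 and Ntrk3 had 1 read each. The list's median was -0.40, close to that of all genes, with 5 of 17 above every ES plate and 1 below. Against each ES plate alone its median had the other sign, at 0.40, 0.19 and 0.12. The 0.40 is the value of a gene with 1 Neuro2A read and no read on ES replicate 1.

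The p53 and growth arrest list lay lower than both other cell types, with a median of -1.63 against ES and -3.18 against MEF. None of its 17 members was above every ES plate, and 6 were below, beside 28.3% and 28.6% of all genes tested. Trp53 itself stood at 24.8 CPM against 287, 161 and 273 in ES and 25.7 in MEF, and 58.4% of its reads came from 1 well. The p53 target Trp53inp1 had 2 reads, against 385, 378 and 576 CPM in ES and 400 in MEF. Other members were read more, as Ccng1 (333 reads in 30 wells), Mdm2 (233 in 28) and Zmat3 (223 in 21). The cell cycle inhibitor Cdkn1a stood at 2.57 CPM against 978 in MEF, and the death effector Bax had 3 reads. Cdkn1b and Cdkn1c had 0 reads.

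Glycolysis had a median of -2.11 against ES, with 12 of 18 below every ES plate and 1 above. The glucose transporter Slc2a3 stood at 35.4 CPM against 576, 513 and 352. Hk2 stood at 59.5 CPM against 243 to 450 and Pgk1 at 119 against 412 to 931. The lactate dehydrogenase subunits differed. Ldha was read in 52 wells at 475 CPM, within the ES range of 189 to 599, and Ldhb had 0 reads against 305, 195 and 128 CPM in ES and 78.7 in MEF.

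Among metallothioneins and antioxidant enzymes, 13 of 22 lay below every ES plate and 5 above. Mt2, whose promoter is printed above, had 0 reads, against 1337, 860 and 1185 CPM in ES and 96.9 in MEF, at least 1168-fold lower than the ES mean. Mt1 had 3 reads in 2 wells, against 770, 691 and 1367 CPM in ES and 549 in MEF. The brain form Mt3 stood at 14.8 CPM, above ES, with 84.8% of its reads in 1 well and 2.32 CPM without it. The glutathione transferase Gsta4 had 0 reads against 296 to 470 CPM in ES, and Nqo1 had 0 against 14.1 to 112. Gpx1 stood at 72.1 CPM against 488 to 1383. Peroxiredoxins went the other way in part: Prdx6 stood at 318 CPM against 47.5 to 53.4 in ES, and Prdx4 at 411 against 3.23 to 85.8.

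The heat shock chaperones had a median of 0.48, with 10 of 21 above every ES plate and 4 below. Dnaja1 stood at 1307 CPM against 121 to 339, and the mitochondrial chaperonin Hspd1 at 1605 against 409 to 823. Below every ES plate were Hsp90aa1 (875 CPM against 1179 to 3316), Cct8 (253 against 302 to 661), Hspa1b with 1 read, and the small heat shock protein Hspb1. Hspb1 had 0 reads, against 197, 124 and 883 CPM in ES and 646 in MEF.

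Class I antigen presentation was readable in Neuro2A. H2-K1 stood at 569 CPM in 51 wells against 19.7 to 119 in ES, H2-D1 at 298 against 0.0808, 0 and 26.5, and their partner B2m at 644 against 47.4, 73.3 and 267. All 3 interferon-inducible membrane protein genes of the list lay below every ES plate. Ifitm2 stood at 80.4 CPM in 23 wells against 809, 209 and 552. Ifitm1 stood at 3.54 CPM, all from 1 well, against 739, 398 and 445 in ES, and Ifitm3 at 4.50 against 330, 124 and 278. Of the list's 12 genes, 7 lay above every ES plate and 4 below, with a median of 0.40. Of these 7, H2-Q7, Tap2 and Psmb8 had only 1 to 3 Neuro2A reads. The median of 0.40 is the value of a gene with 1 Neuro2A read and no ES read. Without the top well of each gene the median was 0, with 5 above every ES plate and 5 below. Over all genes tested that setting had 17.2% above and 37.9% below.

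Immediate early genes stood far below MEF, with a median of -5.61 and 13 of 16 past 4-fold lower (24.9% of all genes were), and 10 of 16 below every ES plate. Egr1 had 3 reads in Neuro2A, against 40.8, 152 and 325 CPM in ES and 543 in MEF. Fosb and Nr4a1 had 0 reads. Fos and Jun did not follow, at 281 and 163 CPM, above every ES plate and near the MEF levels of 272 and 168. For Jun 46.4% of the reads came from 1 well, and without it the level was 88.6 CPM.

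Of the imprinted genes, Gnas, Impact (455 CPM), Mest (197) and Sgce (144) were read above every ES plate. Igf2 stood at 8.04 CPM against 3055 in MEF, and Grb10, Cdkn1c, Ndn, Nnat and Phlda2 had 0 reads. In all, 9 of 17 were past 4-fold below MEF. Of 16 adhesion and guidance genes, 4 lay above every ES plate and 1 below, and 10 had 0 Neuro2A reads. The cell adhesion gene Cadm1 stood at 555 CPM against 12.6, 113 and 104 in ES, and the guidance receptor gene Robo1 had 0 reads against 134, 16.9 and 44.3.

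Some genes read at 50 CPM or more on every other plate were nearly absent from Neuro2A. Of 1796 genes at that level, 33 had 0 Neuro2A reads. Over all genes tested, at any level, 25.3% had none. Among the 20 lowest were Spp1 (osteopontin), with 0 reads against 1480, 1105 and 427 CPM in ES and 1665 in MEF, and the growth factor gene Mdk, with 0 reads against 478, 426 and 522 in ES and 723 in MEF. Midkine, the product of Mdk, is often abundant in human neuroblastoma. Others at 0 were the syndecan Sdc4, the WNT antagonist Sfrp1, Igfbp2, the basement membrane gene Nid1, the motor Myo10, the desaturase Scd1, Rbpms2, Rapgef1 and Dlc1. Of the 20 genes, 16 had 0 reads. Mt1, Trp53inp1, Klf9 and Ptrf had 1 to 3. These genes were chosen for the difference, so it carries no test.

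**Figure D3:**
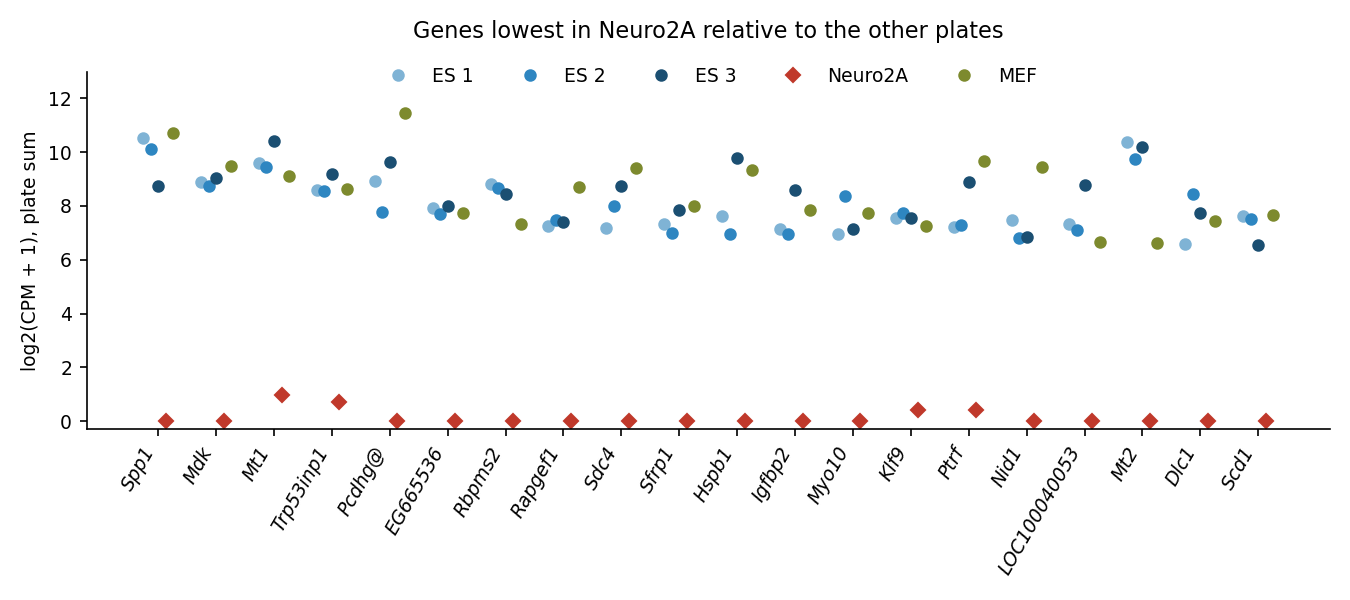
Level on each plate, as log2(CPM + 1) of the summed wells, of the 20 genes lowest in Neuro2A among those read at 50 CPM or more on every other plate. The red diamonds mark Neuro2A, at 0 reads for 16 of the 20.

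Rows outside the gene set also differed. Intracisternal A particles (IAP) are mouse endogenous retroviruses with long terminal repeats. Rows of IAP elements took 2.33% of all Neuro2A reads, against 0.0602, 0.640 and 0.0896% in the ES plates and 0.332% in MEF. All 86 Neuro2A wells had IAP reads, with shares from 0.127% to 10.7% and a median of 2.27%. The highest well on any ES plate had 0.823%, and 6 of the 86 Neuro2A wells lay at or under it. The highest MEF well had 2.74%, and 61 Neuro2A wells lay at or under that. As a share of repeat reads alone, IAP elements took 9.52% in Neuro2A and 0.773% or less in ES. Set against gene reads the order differed: ES replicate 2 had 43296 IAP reads on the CPM scale without TMM, and Neuro2A had 37302. The internal part and repeat of the type 1 elements, IAPLTR1_Mm-int and IAPLTR1_Mm, made up 0.687% and 0.501% of all reads. B2 elements took 12.3% of Neuro2A reads, between the plates' 3.72% and 27.3%, and the neuronal RNA BC1 took 0.0738%, less than on any other plate.

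**Figure D4:**
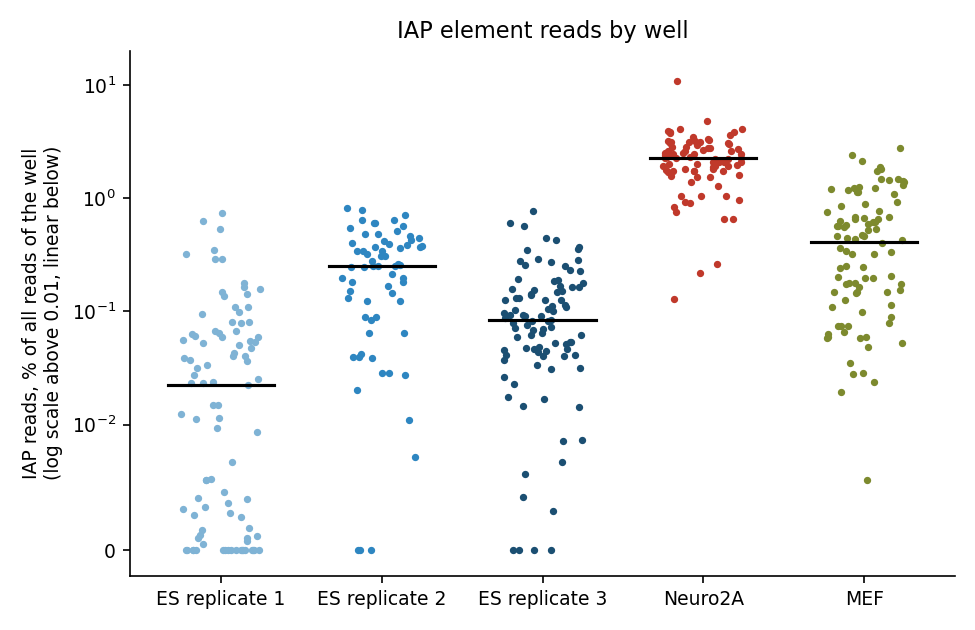
Share of each well's reads on IAP rows (percent of all reads, log scale above 0.01 and linear below), by plate, with 1 point per kept well and a black line at the median. The Neuro2A median is 2.27%, above the MEF median of 0.411% and the ES medians of 0.0223 to 0.252%.

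The spread between Neuro2A wells was measured on reads thinned to 1000 per well, as the natural log of the squared coefficient of variation (CV) left over after the trend with mean level. Of 5770 genes read in at least 10% of wells, none was read in every well, 16 were read in 90% or more and 790 in 50% or more. The median CV was 5.70. For the median gene the 5 highest wells held 77.1% of the summed well levels. The most even genes included the translation factor gene Eef1a1 (CV 0.936), read in 85 wells at 0 to 9921 CPM with a median of 2176, and the ribosomal protein gene Rpl32 (CV 0.898), read in 85 wells at 0 to 10260 CPM with a median of 2905. Ptma, Rps27a, Rps3 and Gnb2l1 followed, together with 4 predicted models. Of 78 ribosomal protein genes 11 lay above the trend, and their median residual was -0.59, against -0.03 for all genes measured. Chaperones had a median of -0.67. The neuronal lists lay near the trend, between -0.40 for the transcription factors and 0.14 for the RNA-binding proteins, and so did the cell cycle lists, at -0.03 and 0.00.

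The most uneven genes rested on single shallow wells. Lars2, a mitochondrial leucyl tRNA synthetase, took 57.6% of the gene reads of 1 well and 7.63% of the next. Over the kept wells its level had a Spearman's rho of 0.456 with the share of ribosomal RNA reads. The reason for this was not tested. The cochaperone Dnaja2 took 23.5% of 1 well, and the splicing-related gene Son 22.7% of another. Each of the 15 most uneven genes had its highest value in 1 of 11 wells, and all 11 had between 1042 and 2844 gene reads. Among the 69 wells of at least 5000 reads, thinned to 5000, Lars2 alone stayed among the 15. There the list was led by Suhw3, 2900042B11Rik, LOC100043618, Ngfrap1 and Epn2, again each high in 1 well: Ngfrap1 reached 59976 CPM in its top well and 5072 in the next.

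**Figure D5:**
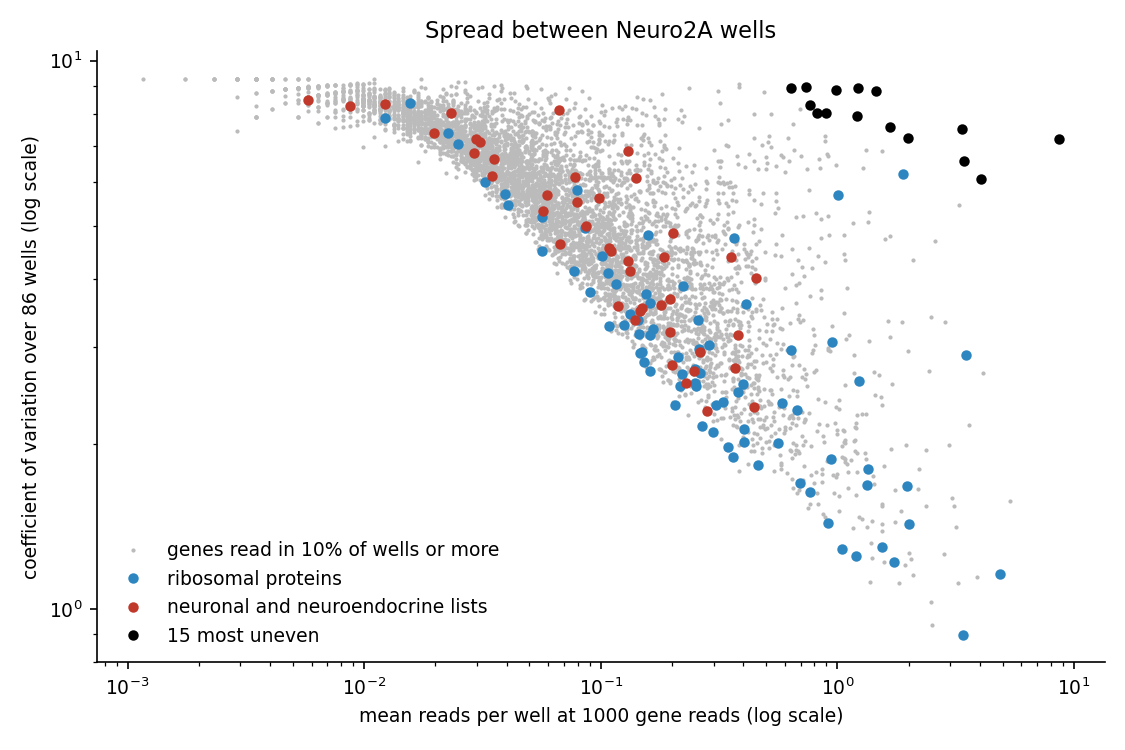
Coefficient of variation over the 86 Neuro2A wells against mean reads per well at 1000 gene reads, both on log scales, for 5770 genes (grey), with ribosomal proteins in blue, the neuronal and neuroendocrine lists in red and the 15 most uneven genes in black. Most ribosomal proteins lie toward the lower edge at a given mean, with 11 of 78 above the trend, and the 15 black points lie far above the trend.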

How the data were processed

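Whole-read counts per gene row and barcode were deposited for each plate, and alignment used Bowtie, per the submitters' processing notes. No source used here names the genome build, the gene models or the counting. Counts were summed over kept wells (at least 1000 gene reads). CPM used edgeR 4.0.16 with TMM factors, after its default filter on low counts, which left 12271 genes. Neuro2A was compared with ES by edgeR's quasi-likelihood test with Benjamini-Hochberg adjustment, with spread taken from the 3 ES plates, and by DESeq2 1.42.0 as an alternative. No test was made against MEF (1 plate each): 4-fold differences with a pseudocount of 1 CPM are descriptions. Log2 differences use the same pseudocount and understate changes of low genes. Folds against 0 reads use a floor of 3 reads per plate. Wells were thinned 20 times. No doublet caller was run, since each well received 1 sorted cell. The edgeR test and the spread measure were also run on simulated counts, with an outcome that is not reported here.

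Named genes are the 20 most abundant, the 20 highest over the highest ES plate, the 20 lowest against the lowest other plate, the 15 most uneven and 10 most even, and examples from 16 lists. The members, markers and lists were chosen with earlier results of these data known. Genes absent from the rows are written as not analysed here, and some members are not reported here. Promoter sequences are RefSeq's (GRCm38.p6), matched by symbol.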

Additional observations from a re-analysis of the deposited data

Results flagged for a closer look

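Rows of IAP elements were not part of the gene comparisons. They took 2.33% of all Neuro2A reads, more than on the next plate (0.640%). The single repeat row RLTR33 took 0.104% of Neuro2A reads, against 0.0289% on the next plate, ES replicate 2. Set against gene reads the order was the other way, with 1958 RLTR33 reads in ES replicate 2 and 1658 in Neuro2A on the CPM scale without TMM. It was read in 26 of 86 Neuro2A wells, and 1 well reached 2.92%. Neither difference was tested. Neuro2A has a single plate, so the line and its plate cannot be told apart.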

How the results depend on the processing

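No gene passed edgeR's threshold against ES in most settings. Exceptions were no filter on low counts (6 higher, 76 lower) and DESeq2's Wald test (80 and 931). Leaving out 1 ES plate at a time gave 0 to 422 higher and 0 to 1016 lower, the upper ends without ES replicate 1. The cause was not tested. Genes past 4-fold against MEF numbered 1568 higher and 3060 lower. They fell to 907 and 1822 with at least 50 CPM required, which tests fewer genes, and to 998 higher with wells weighted equally. The higher count was 2125 with library size alone and 2025 with the Neuro2A share subtracted from MEF. Of 16 gene lists, 7 had a median above that of all genes, and the alternatives gave 7 to 9. Over lists and settings, 110 medians against ES stayed within the standard deviation of the medians against each ES plate, and 32 moved past it. The neuronal cytoskeleton median fell from 2.11 to 1.15 without the 5 deepest wells. Without the top well of each gene it was 1.03, and that of the transcription factors fell from 3.98 to 2.57, beside -1.17 for all genes. The medians of 2 lists reversed. Transmitter synthesis gave 0.17 with wells of at least 5000 reads. The neuroblastoma-associated list gave -0.78 to 0.40 when 1 ES plate was left out, with the positive value without ES replicate 3. This positive value is that of a gene with 1 Neuro2A read and none on the ES plates left in. Shares of wells with a read moved with depth. At 5000 reads they were 27.2% for Elavl2, 43.6% for Chgb, 17.2% for Snap25, 15.4% for Insm1 and 16.9% for Ccne2, and unthinned they were 34.9, 55.8, 31.4, 27.9 and 24.4%. Of the 15 most uneven genes, 1 was kept with 5000 reads a well and 9 among genes read in 30% of wells. Without wells whose barcode ends in G, 13 were kept. Of the 20 most abundant genes, 14 to 20 were kept. No paired analysis was possible because Neuro2A and MEF have 1 plate each. One plate per cell type, wells of very different depth and reads without molecular identifiers limit all levels, and genes under about 3 reads per plate cannot be told from 0.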
